A study of Mus musculus with 18 samples.

Results

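The 31 genes described here make cholesterol and fatty acids or handle sterols inside the cell, and they were read in mouse breast cancer cells that received docetaxel, a taxane that stabilises microtubules. They were chosen by symbol, and the counts of all transcript models with a symbol were summed. All 31 were found among 32699 gene symbols, and 27 of them were among the 12145 symbols with enough counts to be tested. The cells were PyMT-BO1, a luminal B-like line of C57BL/6 background whose integrin β3 gene was knocked out. These cells carried a functional human integrin β3 (hβ3), a mutant integrin β3 that lacks signalling (Δβ3) or the empty retroviral vector (pMx). Each line received 10 nM docetaxel or DMSO for 24 h, with 3 cultures in each of the 6 groups and 18 libraries in all. Every group therefore shares the β3 knockout and the retroviral vector, and each construct is represented by 1 line, so the construct cannot be told apart from anything else in which the lines differ.

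Cholesterol is built from acetyl-CoA through mevalonate and isoprenoid units to squalene, which is closed into lanosterol and then trimmed to cholesterol. The genes of this route, like those of fatty acid synthesis, are driven by the SREBP transcription factors, which the escort protein Scap carries out of the endoplasmic reticulum and which Insig proteins hold back when sterols are plentiful. When sterol derivatives accumulate, LXR receptors switch on sterol efflux instead. Tumour cells are known to draw on both routes for membranes.

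Levels are counts per 1e6 counts of the scaled library (CPM). Library totals ran from 7.97 to 18.96 in units of 1e6 counts. Itgb3, the gene for integrin β3, had 32.9 to 130.6 CPM in the hβ3 and Δβ3 libraries and 0.322 to 1.30 CPM in the pMx libraries, in the order their labels give. Counts were made on the mouse genome and hβ3 cells carry a human β3. Their value is therefore not a level of the construct, and levels of the constructs were not compared. In 2 libraries, transcripts of other tissues were high. The summed level of 20 heart muscle markers reached 43426 CPM in culture 2 of Δβ3 docetaxel and 5175 CPM in culture 1 of Δβ3 DMSO, against 178 to 2192 CPM in the other 16 libraries. In these Δβ3 cultures 15 and 14 of the 20 markers were above 0, and Mb, Tnnt2, Myl7, Smpx and Xirp2 were at 0. Among the other 16, culture 1 of pMx docetaxel (2192 CPM) and cultures 1 and 2 of pMx DMSO (1933 and 1292 CPM) stood above the remaining 13, which had 178 to 689 CPM. A set of 10 adipocyte markers summed to 3267 and 381 CPM in the same Δβ3 cultures and to 15.7 to 159 CPM in the others, but 7 of the 10, Adipoq among them, were at 0 in both cultures, and the sum came from Lpl, Fabp4 and Plin4. The fibroblast markers (8) summed to 1132 and 192 CPM against 14.1 to 76.7 CPM, with Pdgfrb and Postn at 0 in both cultures. The leukocyte markers (7) summed to 202 and 30.3 CPM against 3.62 to 15.0 CPM. Of these sums Lyz2 gave 174 and 27.3 CPM, while Ptprc and Adgre1 were at 0 in both cultures and Cd68 had 9.32 and 1.09 CPM, against 2.63 to 9.58 CPM in the others. The sums of 10 hepatocyte markers were 0.168 to 1.08 CPM over all libraries. The luminal markers (10) summed to 1191 CPM in Δβ3 docetaxel culture 2 and to 1980 to 3416 CPM elsewhere, nearly all of it from Krt8 and Krt18. Cdh1 had 0.395 to 2.19 CPM, the other 7 (Krt19, Epcam, Cldn3, Cldn4, Cldn7, Elf3 and Esrp1) had 0 to 0.359 CPM, and 3 to 7 of the 10 were at 0 in each library, so most luminal markers were counted at or near 0. A marker at 0 was not read as absent, since genes with several models could have low counts, as described below for the members. Of the 27 tested genes, 24 had their lowest level of the 3 Δβ3 docetaxel cultures in culture 2, and 19 had their lowest level of the 3 Δβ3 DMSO cultures in culture 1. The test (edgeR's quasi-likelihood F-test, with Benjamini-Hochberg adjustment over all tested genes and a call at an adjusted p under 0.05) was run on all 18 libraries and, beside it, on the 16 libraries without these 2, which left 2 cultures in each Δβ3 group. A further test, chosen after seeing the data, also left out the 3 pMx cultures named above (13 libraries). It kept 2 pMx docetaxel cultures and 1 pMx DMSO culture, which was assumed to vary like the other groups. The biological coefficient of variation was 36.1% with 18 libraries and 13.2% with 16. Results of the tests on 16 and 13 libraries are named as such.

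The members could not be measured equally well. Of the 31, 10 had 1 transcript model in the table and 13 had fewer than 1000 counts over all libraries, and all 13 had several models. Fdps, the farnesyl diphosphate synthase, was listed at 0, and Mvd, the decarboxylase of the mevalonate route, had 12 counts in total. Srebf1 and Insig2 had 3 and 46 counts. These 4 genes were the ones not tested, and a low count of a gene with several models is no evidence that it is silent. The sources used here do not say how reads shared by several models were counted. Srebf1, which encodes an SREBP, had 0.0935 and 0.0938 CPM in pMx docetaxel cultures 2 and 3 and 0 in every other culture. Among the 10 members with 1 model, levels per kilobase of transcript in pMx DMSO cells were highest for the desaturase Scd2, at 429 CPM per kilobase, and for the fatty acid synthase Fasn, at 224. They followed in the order Cyp51 (119), Ebp (109), Insig1 (108), Scd1 (99.8), Fdft1 (44.1), Nsdhl (31.3), Dhcr7 (24.8) and Idi1 (11.2), all in CPM per kilobase.

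Promoters are shown for Cyp51, Msmo1, Nsdhl and Ebp, 4 enzymes of the late sterol route that all differed between hβ3 and pMx cells under docetaxel in the test on 16 libraries, and for Hmgcs1, the only member with a match to the sterol element searched for. They are the 250 bases before the gene's start in RefSeq on build GRCm38.p6: Cyp51 (chr5:4104698-4104947, minus strand), Msmo1 (chr8:64733579-64733828, minus strand), Nsdhl (chrX:72918271-72918520, plus strand), Ebp (chrX:8193513-8193762, minus strand) and Hmgcs1 (chr13:119690101-119690350, plus strand). Each runs 5′ to 3′ on the gene's strand, and capitals mark matches on either strand to the sterol element TCACNCCAC, the NF-Y box CCAAT or the Sp1 box GGGCGG.
Cyp51: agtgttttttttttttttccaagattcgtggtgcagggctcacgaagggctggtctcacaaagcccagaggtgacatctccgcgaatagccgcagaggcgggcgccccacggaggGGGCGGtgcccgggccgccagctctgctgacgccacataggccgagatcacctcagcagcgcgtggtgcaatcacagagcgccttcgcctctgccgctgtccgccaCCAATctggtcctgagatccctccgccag
Msmo1: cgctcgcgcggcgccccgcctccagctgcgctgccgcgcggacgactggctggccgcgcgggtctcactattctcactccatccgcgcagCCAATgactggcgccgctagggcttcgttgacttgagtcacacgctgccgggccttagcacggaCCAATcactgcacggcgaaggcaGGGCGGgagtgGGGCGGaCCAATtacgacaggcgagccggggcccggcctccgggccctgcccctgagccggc
Nsdhl: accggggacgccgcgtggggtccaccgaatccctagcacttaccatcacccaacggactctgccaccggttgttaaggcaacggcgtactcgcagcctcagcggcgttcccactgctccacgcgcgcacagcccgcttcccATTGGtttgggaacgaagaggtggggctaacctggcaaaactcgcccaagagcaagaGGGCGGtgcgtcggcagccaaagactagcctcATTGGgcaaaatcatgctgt
Ebp: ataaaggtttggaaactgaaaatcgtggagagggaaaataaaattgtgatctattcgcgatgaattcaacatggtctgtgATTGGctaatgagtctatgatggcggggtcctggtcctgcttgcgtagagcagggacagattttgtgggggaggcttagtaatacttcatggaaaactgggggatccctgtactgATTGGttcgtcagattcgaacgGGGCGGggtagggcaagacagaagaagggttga
Hmgcs1: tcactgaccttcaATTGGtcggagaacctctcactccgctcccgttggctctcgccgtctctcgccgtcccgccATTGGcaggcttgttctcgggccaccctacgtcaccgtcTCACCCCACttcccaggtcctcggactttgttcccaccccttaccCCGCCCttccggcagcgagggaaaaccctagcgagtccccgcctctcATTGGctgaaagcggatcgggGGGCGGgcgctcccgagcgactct
A promoter was available for 24 of the 31 members. The sterol element was found in 1 of the 24, against 1.22% of 27025 genes with a promoter. The CCAAT box was found in 19 of 24 (79.2%), against 37.5% of those genes, and GGGCGG in 20 of 24 (83.3%), against 35.4%. In the 5 promoters shown, no match overlapped another.

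As the mean response of the 3 lines to docetaxel, the lysosomal cholesterol exporter Npc1 rose and the sterol genes Acat2, Idi1, Srebf2 and Stard4 fell. With 18 libraries, 5 of 27 members were called, 1 higher and 4 lower, where 15.6% of all tested genes were called, 7.9% higher and 7.67% lower. With 16 libraries, 15 of 27 were called, 4 higher and 11 lower, against 30.1% of all genes, 15.8% higher and 14.3% lower. With 13 libraries 13 were called, against 27.6% of all genes, and Acat2 and Srebf2 were not (adjusted p = 0.110 and 0.0622). The median log2 fold change over the members was -0.21 with 18 libraries, beside 0.06 over all genes, and -0.13 with 16 libraries, beside 0.02. Single libraries decided most calls: leaving out 1 library at a time left 1 to 9 members called.

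**Figure D1:**
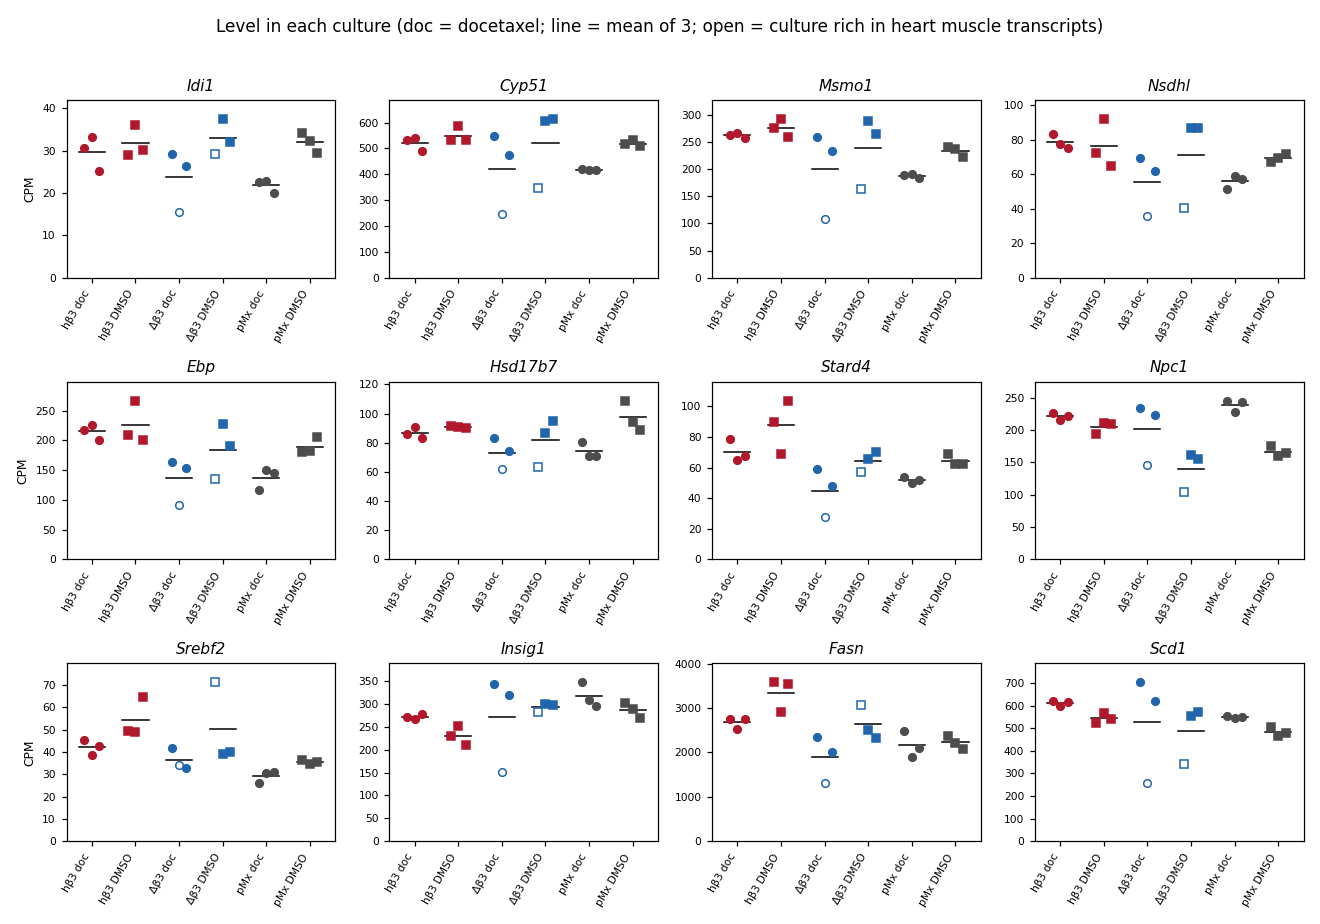
Level (CPM) of 12 members in each culture, by line and treatment (doc is docetaxel), with a horizontal line at the mean of 3 cultures and open symbols for the 2 cultures rich in heart muscle transcripts. The mean of Npc1 is higher with docetaxel in all 3 lines, while Idi1, Cyp51, Msmo1, Nsdhl, Hsd17b7 and Ebp sit lower with docetaxel in pMx cells and overlap with DMSO in hβ3 cells.

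The mevalonate steps come first. Acat2, the cytosolic acetoacetyl-CoA thiolase, fell by 0.52 ± 0.17 on the log2 scale (SE, adjusted p = 0.0484 in edgeR with 18 libraries) and by 0.49 ± 0.16 with 16 (adjusted p = 0.0227). Acat2 had 3.43, 4.56 and 4.62 CPM in hβ3 docetaxel cultures, against 2.91, 4.53 and 2.91 CPM in hβ3 DMSO cultures. In Δβ3 cells, Acat2 had 2.37, 1.55 and 2.15 CPM with docetaxel and 3.55, 4.27 and 4.15 CPM with DMSO. In pMx cells, Acat2 had 1.38, 3.18 and 1.97 CPM with docetaxel and 4.24, 4.14 and 3.68 CPM with DMSO. Its docetaxel cultures lay below its DMSO cultures in Δβ3 and pMx cells, but not in hβ3 cells. Its call was lost without any 1 of 14 libraries, up to an adjusted p of 0.123, and kept without Δβ3 docetaxel culture 1 or 2, Δβ3 DMSO culture 1 or pMx docetaxel culture 2. Idi1 (chromosome 13, 8885501 to 8892451, plus strand, mm10), the isopentenyl diphosphate isomerase, fell by 0.37 ± 0.11 (adjusted p = 0.0354, edgeR) and by 0.31 ± 0.07 with 16 libraries (adjusted p = 0.00151). Idi1 had 30.6, 33.1 and 25.1 CPM in hβ3 docetaxel cultures, against 28.9, 36.1 and 30.1 CPM in hβ3 DMSO cultures. In Δβ3 cells, Idi1 had 29.2, 15.5 and 26.4 CPM with docetaxel and 29.3, 37.5 and 32.1 CPM with DMSO. In pMx cells, Idi1 had 22.5, 22.8 and 20.1 CPM with docetaxel and 34.3, 32.4 and 29.5 CPM with DMSO. The docetaxel cultures lay below the DMSO cultures in pMx cells, and in Δβ3 cells by a small margin, and overlapped with them in hβ3 cells. The call of Idi1 was lost without hβ3 docetaxel culture 1 or 3, hβ3 DMSO culture 2 or 3, Δβ3 DMSO culture 2, any pMx docetaxel culture, or pMx DMSO culture 1 or 2, up to an adjusted p of 0.0837. Pmvk had 6.12, 7.13 and 4.79 CPM in hβ3 docetaxel cultures, against 6.23, 6.88 and 5.39 CPM in hβ3 DMSO cultures. In Δβ3 cells, Pmvk had 6.17, 9.79 and 5.29 CPM with docetaxel and 17.96, 10.6 and 9.60 CPM with DMSO. In pMx cells, Pmvk had 3.39, 4.86 and 5.39 CPM with docetaxel and 5.54, 4.78 and 6.06 CPM with DMSO. The phosphomevalonate kinase Pmvk was highest in Δβ3 DMSO culture 1. Its treatment groups overlapped in each line, in Δβ3 cells only through docetaxel culture 2, rich in heart muscle transcripts. Pmvk was called lower with docetaxel with 16 libraries, by -0.35 ± 0.12 as the mean of the lines (adjusted p = 0.0288), and not with 18 (adjusted p = 0.134). Hmgcs1 had 2.26, 2.28 and 1.43 CPM in hβ3 docetaxel cultures, against 1.94, 1.67 and 2.41 CPM in hβ3 DMSO cultures. In Δβ3 cells, Hmgcs1 had 1.62, 0.155 and 2.69 CPM with docetaxel and 1.97, 2.64 and 3.11 CPM with DMSO. In pMx cells, Hmgcs1 had 1.69, 2.24 and 2.39 CPM with docetaxel and 1.99, 2.04 and 2.19 CPM with DMSO. The synthase Hmgcs1 stayed near the limit of counting, its treatment groups overlapped in all lines, and it was not called in any comparison.

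Among the enzymes from squalene to cholesterol, 0 of 11 tested members were called with 18 libraries in the mean response (2 at an unadjusted p under 0.05). All 11 had a negative fold change with 18 libraries, and the share of negative changes over all genes is not given here. These libraries include Δβ3 docetaxel culture 2, in which 24 of the 27 tested members were lowest of the 3 cultures. With 16 libraries Cyp51, Msmo1, Nsdhl, Hsd17b7 and Ebp fell. Cyp51 had 535, 539.8 and 492 CPM in hβ3 docetaxel cultures, against 532, 585 and 531 CPM in hβ3 DMSO cultures. In Δβ3 cells, Cyp51 had 547, 247 and 474 CPM with docetaxel and 347, 604 and 614 CPM with DMSO. In pMx cells, Cyp51 had 419.9, 416 and 417 CPM with docetaxel and 518, 531 and 509 CPM with DMSO. Cyp51 (chromosome 5, 4081145 to 4104746, minus strand, mm10), the lanosterol demethylase, was lower in each pMx docetaxel culture than in any pMx DMSO culture, and overlapped in the other lines, in Δβ3 cells through the cultures rich in heart muscle transcripts. Its mean change was -0.20 ± 0.04 with 16 libraries (adjusted p = 0.000302) and -0.23 ± 0.13 with 18 (adjusted p = 0.275). Msmo1 had 263, 267 and 257 CPM in hβ3 docetaxel cultures, against 276, 293 and 259.7 CPM in hβ3 DMSO cultures. In Δβ3 cells, Msmo1 had 259, 108 and 233 CPM with docetaxel and 163, 288 and 265 CPM with DMSO. In pMx cells, Msmo1 had 188, 191 and 184 CPM with docetaxel and 241, 237 and 223 CPM with DMSO. Msmo1, a methylsterol oxidase, showed the same order in pMx cells, and overlapped in Δβ3 cells only through DMSO culture 1. With 16 libraries its mean change was -0.17 ± 0.04 (adjusted p = 0.00184), and with 18 it was -0.21 ± 0.14 (adjusted p = 0.338).

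Nsdhl had 83.5, 77.4 and 74.9 CPM in hβ3 docetaxel cultures, against 72.1, 92.00 and 64.99 CPM in hβ3 DMSO cultures. In Δβ3 cells, Nsdhl had 69.2, 36.1 and 61.9 CPM with docetaxel and 40.2, 86.99 and 86.8 CPM with DMSO. In pMx cells, Nsdhl had 51.4, 58.9 and 57.00 CPM with docetaxel and 67.3, 69.4 and 71.6 CPM with DMSO. The sterol dehydrogenase Nsdhl separated by treatment in pMx cells and overlapped in hβ3 cells, and in Δβ3 cells only through DMSO culture 1. The mean change of Nsdhl was -0.21 ± 0.06 with 16 libraries (adjusted p = 0.0103) and -0.21 ± 0.15 with 18 (adjusted p = 0.382). Hsd17b7 had 86.1, 91.1 and 82.98 CPM in hβ3 docetaxel cultures, against 91.7, 90.8 and 90.04 CPM in hβ3 DMSO cultures. In Δβ3 cells, Hsd17b7 had 83.6, 61.8 and 74.4 CPM with docetaxel and 63.5, 87.1 and 95.3 CPM with DMSO. In pMx cells, Hsd17b7 had 80.7, 70.8 and 70.97 CPM with docetaxel and 109, 94.2 and 89.04 CPM with DMSO. For Hsd17b7, the ketosteroid reductase that works with Nsdhl, the docetaxel cultures were all below the DMSO cultures in pMx cells. They overlapped in hβ3 cells, and in Δβ3 cells only through DMSO culture 1, rich in heart muscle transcripts. Hsd17b7 changed by -0.21 ± 0.05 with 16 libraries (adjusted p = 0.00291), against -0.21 ± 0.09 with 18 (adjusted p = 0.123). Ebp had 217, 226 and 201 CPM in hβ3 docetaxel cultures, against 208, 267 and 201 CPM in hβ3 DMSO cultures. In Δβ3 cells, Ebp had 164, 92.2 and 154 CPM with docetaxel and 135, 227 and 191 CPM with DMSO. In pMx cells, Ebp had 117, 151 and 145 CPM with docetaxel and 179.9, 183 and 205 CPM with DMSO. The sterol isomerase Ebp was lower with docetaxel in pMx cells without overlap, and overlapped in Δβ3 cells only through DMSO culture 1. Its mean change was -0.30 ± 0.07 with 16 libraries (adjusted p = 0.00213) and -0.32 ± 0.12 with 18 (adjusted p = 0.0822).

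Sqle had 7.22, 7.70 and 6.31 CPM in hβ3 docetaxel cultures, against 6.44, 6.82 and 8.80 CPM in hβ3 DMSO cultures. In Δβ3 cells, Sqle had 6.61, 2.18 and 7.08 CPM with docetaxel and 3.26, 6.21 and 6.32 CPM with DMSO. In pMx cells, Sqle had 4.87, 4.02 and 4.92 CPM with docetaxel and 4.33, 6.50 and 5.22 CPM with DMSO. Squalene epoxidase, Sqle, a controlling step of the route, was not called for docetaxel in any line. Fdft1 had 174, 164 and 154 CPM in hβ3 docetaxel cultures, against 152, 174 and 146 CPM in hβ3 DMSO cultures. In Δβ3 cells, Fdft1 had 189, 101 and 173 CPM with docetaxel and 128, 228 and 206 CPM with DMSO. In pMx cells, Fdft1 had 154, 153 and 156 CPM with docetaxel and 155, 162 and 172 CPM with DMSO. The squalene synthase Fdft1, whose exons share 774 bases (18.3% of its own) with Ctsb on the other strand, was not called for docetaxel, and the sources used here give no strand setting for the counting. Lss, Tm7sf2 and Sc5d had no more than 1.72 CPM in any culture, and Dhcr7, the last reductase, was not called for docetaxel either.

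Of the SREBP machinery, Srebf2, which encodes the SREBP that mainly drives cholesterol synthesis, fell. Srebf2 had 45.4, 38.7 and 42.8 CPM in hβ3 docetaxel cultures, against 49.3, 49.1 and 64.8 CPM in hβ3 DMSO cultures. In Δβ3 cells, Srebf2 had 41.7, 34.3 and 32.98 CPM with docetaxel and 71.1, 39.1 and 40.1 CPM with DMSO. In pMx cells, Srebf2 had 25.9, 30.6 and 31.2 CPM with docetaxel and 36.4, 34.7 and 35.3 CPM with DMSO. Its docetaxel cultures were below its DMSO cultures in hβ3 and in pMx cells and overlapped with them in Δβ3 cells, where DMSO culture 1 was far above the others. The mean change was -0.37 ± 0.12 (adjusted p = 0.0405, edgeR, 18 libraries) and -0.23 ± 0.07 with 16 (adjusted p = 0.0173). The call was kept only without Δβ3 docetaxel culture 1 or 2 or any Δβ3 DMSO culture, was lost without each of the other 13 libraries, up to an adjusted p of 0.108, and was lost when only the transcript model with most counts was used (adjusted p = 0.227). Insig1 had 270.2, 266 and 279 CPM in hβ3 docetaxel cultures, against 229, 253 and 209.9 CPM in hβ3 DMSO cultures. In Δβ3 cells, Insig1 had 344, 150.4 and 319 CPM with docetaxel and 282, 299 and 298 CPM with DMSO. In pMx cells, Insig1 had 347, 309 and 294 CPM with docetaxel and 301, 288 and 270.0 CPM with DMSO. Insig1, the retention protein and itself an SREBP target, was higher in each hβ3 docetaxel culture than in any hβ3 DMSO culture. It overlapped in pMx cells, and in Δβ3 cells only through docetaxel culture 2, rich in heart muscle transcripts. As the mean of the lines it rose with 16 libraries, by 0.19 ± 0.05 (adjusted p = 0.00258), but not with 18 (0.09 ± 0.12, adjusted p = 0.655). Scap had 3.06, 4.56 and 4.46 CPM in hβ3 docetaxel cultures, against 2.77, 2.36 and 2.27 CPM in hβ3 DMSO cultures. In Δβ3 cells, Scap had 4.43, 1.86 and 4.57 CPM with docetaxel and 4.34, 2.79 and 2.60 CPM with DMSO. In pMx cells, Scap had 3.28, 4.39 and 3.52 CPM with docetaxel and 3.12, 4.39 and 2.19 CPM with DMSO. The escort protein Scap was separated by treatment in hβ3 cells and overlapped in the others, in Δβ3 cells only through docetaxel culture 2. It was called higher with 16 libraries, by 0.56 ± 0.15 (adjusted p = 0.00703), against 0.36 ± 0.20 with 18 (adjusted p = 0.242).

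The sterol carriers went opposite ways. Npc1 had 226, 215 and 221 CPM in hβ3 docetaxel cultures, against 194, 211 and 208 CPM in hβ3 DMSO cultures. In Δβ3 cells, Npc1 had 233, 146 and 223 CPM with docetaxel and 104, 161 and 156 CPM with DMSO. In pMx cells, Npc1 had 245, 228 and 244 CPM with docetaxel and 175, 159 and 164 CPM with DMSO. Npc1 exports cholesterol from lysosomes. Its docetaxel cultures lay above its DMSO cultures in hβ3 and pMx cells, and in Δβ3 cells once the 2 cultures rich in heart muscle transcripts are set aside. It rose by 0.39 ± 0.10 (adjusted p = 0.0114, edgeR) and by 0.40 ± 0.04 with 16 libraries (adjusted p = 3.2e-08), and no single left-out library ended the call, the highest adjusted p being 0.0325. Stard4 had 78.9, 64.8 and 67.5 CPM in hβ3 docetaxel cultures, against 89.6, 69.1 and 104 CPM in hβ3 DMSO cultures. In Δβ3 cells, Stard4 had 58.99, 27.8 and 48.04 CPM with docetaxel and 56.9, 65.6 and 70.1 CPM with DMSO. In pMx cells, Stard4 had 53.9, 49.7 and 52.03 CPM with docetaxel and 68.98, 62.2 and 62.3 CPM with DMSO. Stard4, a carrier of cholesterol through the cytosol, was lower with docetaxel in pMx cells. Stard4 overlapped in hβ3 cells, and in Δβ3 cells only through DMSO culture 1, rich in heart muscle transcripts. Its mean change was -0.38 ± 0.12 (adjusted p = 0.0419), and -0.31 ± 0.07 with 16 libraries (adjusted p = 0.00211). Its call was kept only without hβ3 DMSO culture 2, any Δβ3 docetaxel culture or Δβ3 DMSO culture 1, with an adjusted p of up to 0.103 without each of the other 13.

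In fatty acid synthesis, Fasn and Scd1 moved apart with 16 libraries. Fasn had 2759.9, 2522 and 2756 CPM in hβ3 docetaxel cultures, against 3574, 2904 and 3538 CPM in hβ3 DMSO cultures. In Δβ3 cells, Fasn had 2338, 1322 and 2004 CPM with docetaxel and 3061, 2495 and 2335 CPM with DMSO. In pMx cells, Fasn had 2485, 1898 and 2102 CPM with docetaxel and 2369, 2221 and 2081 CPM with DMSO. Fasn (chromosome 11, 120805846 to 120824547, minus strand, mm10), the fatty acid synthase, was lower with docetaxel in hβ3 cells without overlap, and overlapped in pMx and Δβ3 cells. Its mean change was -0.16 ± 0.06 with 16 libraries (adjusted p = 0.0495) and -0.28 ± 0.10 with 18 (adjusted p = 0.0804). Scd1 had 619, 597 and 616 CPM in hβ3 docetaxel cultures, against 525, 569 and 541 CPM in hβ3 DMSO cultures. In Δβ3 cells, Scd1 had 702, 259 and 621 CPM with docetaxel and 341, 553 and 573 CPM with DMSO. In pMx cells, Scd1 had 554, 545 and 549.8 CPM with docetaxel and 505, 466 and 477 CPM with DMSO. Scd1, a stearoyl-CoA desaturase with the close relative Scd2, lay higher with docetaxel in hβ3 and pMx cells. Scd1 overlapped in Δβ3 cells only through docetaxel culture 2, rich in heart muscle transcripts. It rose by 0.21 ± 0.04 with 16 libraries (adjusted p = 0.00017), against 0.15 ± 0.15 with 18 (adjusted p = 0.532). Acly, Acaca, Scd2 and Elovl6 were not called in the mean response with either set of libraries.

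Within single lines, no member was called with 18 libraries: 0 of 27 in hβ3, 0 in Δβ3 and 0 in pMx, with 0, 7 and 5 at an unadjusted p under 0.05, where 1.16%, 6.87% and 3.62% of all genes were called. By DESeq2, another count model, the counts in these lines were 0, 3 and 2. With 16 libraries the counts were 3, 5 and 9 of 27, against 12.5%, 11.3% and 21.3% of all genes, so the hβ3 count was close to the share of all genes. In pMx cells Acat2, Idi1, Cyp51, Msmo1, Nsdhl, Hsd17b7 and Ebp fell, with log2 changes of -0.30 to -0.88, while Npc1 rose by 0.54 ± 0.07 and Scd1 by 0.20 ± 0.06. When only the 6 pMx libraries were fitted, neither of the 2 cultures being among them, 9 members were called, against 20.6% of all genes. With 13 libraries 2 members were called in pMx cells, Ebp and Npc1, against 10.5% of all genes, and the changes of the other 7 were -0.57 to 0.20 at adjusted p-values of 0.0571 to 0.389. In Δβ3 cells Pmvk, Cyp51 and Nsdhl fell and Npc1 and Scd1 rose. In hβ3 cells Srebf2 and Fasn fell and Insig1 rose.

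Whether the lines answered differently was tested directly. For hβ3 against pMx, 0 of 27 members were called with 18 libraries (1 at an unadjusted p under 0.05, 0 by DESeq2), where 0.0165% of all genes were called. With 16 libraries Npc1 was called, against 2.3% of all genes, at -0.41 ± 0.09 (95% interval -0.59 to -0.23, adjusted p = 0.0177), and the same comparison with 18 libraries gave -0.41 ± 0.24. Fitted on the hβ3 and pMx libraries alone, Npc1 was also called, at -0.42 (adjusted p = 0.0329), against 1.83% of all genes. With 13 libraries it was -0.40 and not called (adjusted p = 0.143), where 0.691% of all genes were called. With 16 libraries the docetaxel change of Npc1 was 0.13 ± 0.07 in hβ3 cells and 0.54 ± 0.07 in pMx cells. Other members had an unadjusted p under 0.05 in that test without being called (adjusted p = 0.0890 to 0.294, edgeR). They were Acat2, Idi1, Cyp51, Msmo1, Nsdhl, Hsd17b7 and Ebp, with positive differences, and Acaca, with a negative one. The share of all genes at that unadjusted p is not given here. For hβ3 against Δβ3, 0 were called with either set (1 and 6 at an unadjusted p under 0.05, 0 by DESeq2), where 0.0412% and 0.591% of all genes were called. For Δβ3 against pMx, 0 were called with either set (0 and 0 at an unadjusted p under 0.05, 0 by DESeq2), where 0.0% of all genes were called with both.

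**Figure D2:**
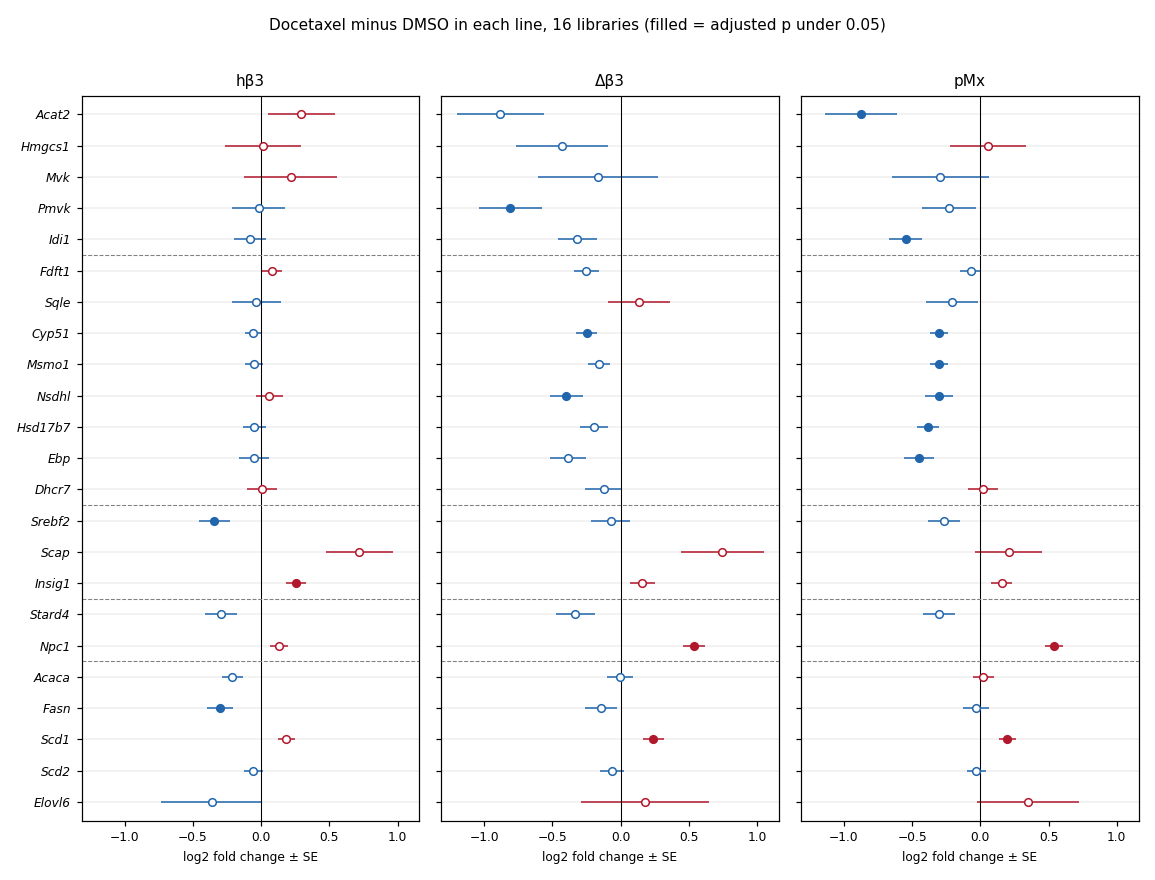
Log2 fold change of docetaxel over DMSO (points, with bars of 1 SE) for tested members in hβ3, Δβ3 and pMx cells, from the test on 16 libraries, with filled points at an adjusted p under 0.05 and dashed lines between roles. Members with an SE over 0.5 in 1 of the plotted comparisons (Acly, Lss, Tm7sf2 and Sc5d) are left out. Filled points to the left of 0 are most frequent in the pMx panel, where 7 members fell. Calls over all genes were also most frequent in pMx cells, at 21.3%, against 12.5% in hβ3 and 11.3% in Δβ3 cells. The responses of these 7 members were not called different between lines when compared directly.

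Lines were then compared in the same treatment. Under docetaxel, with 16 libraries, 11 members were higher in hβ3 than in pMx cells, among them 7 enzymes of the sterol route. In this comparison 0 of 27 members were called with 18 libraries (5 at an unadjusted p under 0.05, 2 by DESeq2), against 8.46% of all genes, and 12 of 27 with 16 libraries, 11 higher and 1 lower, against 27.3% of all genes, 15.2% higher and 12.2% lower. Fitted on the 6 libraries of this pair of groups alone, 12 were also called, against 30.5% of all genes. The 11 were Acat2, Idi1, Sqle, Cyp51, Msmo1, Nsdhl, Ebp, Srebf2, Stard4, Fasn and Scd2, at log2 differences of 0.23 to 0.94, and the one lower in hβ3 was Insig1, at -0.23 ± 0.07. With 13 libraries 12 were called, all higher, against 24.7% of all genes: 11 were shared with the test on 16, and Insig1 was not called (-0.16, adjusted p = 0.134). Msmo1 differed by 0.47 ± 0.07 (adjusted p = 5.35e-06 with 16 libraries, 0.274 with 18) and Ebp by 0.63 ± 0.11 (adjusted p = 0.000198 with 16, 0.0661 with 18). Every hβ3 docetaxel culture was above every pMx docetaxel culture for each of the 11, and below every one for Insig1. These members were called on the same values, so the separation is no further support. The uncalled Dhcr7, Hsd17b7, Lss and Scd1 were separated in the same way, and Npc1 in the opposite direction. The share of separated genes among all genes is not given here. The median over the members was 0.26 with 16 libraries, beside -0.03 over all genes.

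Scd2 had 2773, 2611 and 2677 CPM in hβ3 docetaxel cultures, against 2706, 3079 and 2701 CPM in hβ3 DMSO cultures. In Δβ3 cells, Scd2 had 3065, 1157 and 2582 CPM with docetaxel and 2458, 2893 and 3034 CPM with DMSO. In pMx cells, Scd2 had 2424, 2188 and 2205 CPM with docetaxel and 2469, 2245 and 2298 CPM with DMSO. Scd2, the second desaturase and among the most abundant members, was higher in hβ3 than in pMx cells with either treatment, by 0.23 ± 0.07 with docetaxel and by 0.25 ± 0.07 with DMSO in the test on 16 libraries.

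In DMSO, hβ3 cells differed from pMx cells in 0 of 27 members with 18 libraries (3 at an unadjusted p under 0.05, 2 by DESeq2), against 9.02% of all genes, and in 7 with 16 libraries, 6 higher and 1 lower, against 26.8%, 13.3% higher and 13.5% lower. In either direction together, 7 of 27 is close to the share of all genes. Higher in hβ3 were Srebf2 (0.60 ± 0.11), Fasn (0.57 ± 0.10), Stard4, Npc1, Scd2 and Msmo1, and lower was Insig1 (-0.33 ± 0.07). With 13 libraries 5 were called, against 17.1% of all genes, and Stard4 and Insig1 were not (adjusted p = 0.1004 and 0.0746). Both Srebf2 and Fasn were near the threshold with 18 libraries, at adjusted p-values of 0.069 and 0.0513. The ribosomal transcript Rn45s took 27.5, 10.9 and 33.0% of counts in hβ3 DMSO cultures 1 to 3. It took 8.36 to 9.81% in pMx DMSO cultures and 41.5% in Δβ3 DMSO culture 1. In docetaxel it took 11.1 to 19.2% in hβ3 and 6.59 to 8.81% in pMx cultures. Among hβ3 DMSO cultures, Srebf2, Fasn and Stard4 were lowest in culture 2, and Npc1, Scd2, Msmo1 and Insig1 highest. What part goes with this share was not tested. The sterol route enzymes Idi1, Cyp51, Nsdhl and Ebp, called under docetaxel, were not called in DMSO. Whether the line difference itself changed with treatment is the response difference tested above, in which Npc1 was the only member called with 16 libraries and 0 members with 18.

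Against Δβ3 cells, hβ3 cells showed in DMSO 2 of 27 members called with 18 libraries, against 13.1% of all genes. With 16 libraries it was 7 of 27, against 23.3%. The first count lies below the share of all genes and the second near it. Pmvk was lower in hβ3 by -1.04 ± 0.28 (adjusted p = 0.0211, edgeR), a call lost without hβ3 DMSO culture 1 or 3 or Δβ3 DMSO culture 1, up to an adjusted p of 0.113, and by -0.73 ± 0.21 with 16 libraries. Npc1 was higher in hβ3 by 0.54 ± 0.17 (adjusted p = 0.0417), and the call was lost without any hβ3 or pMx library or Δβ3 DMSO culture 1, up to an adjusted p of 0.150. With 16 libraries Srebf2, Fasn, Acaca and Npc1 were higher and Pmvk, Fdft1 and Insig1 lower in hβ3. Under docetaxel 1 of 27 members was called with 18 libraries, against 10.1% of all genes, and 5 of 27 with 16, against 19.9%. Neither count exceeds the share of all genes. Acat2 was higher in hβ3 by 1.03 ± 0.30 (adjusted p = 0.0381), a call lost without any hβ3 docetaxel culture, hβ3 DMSO culture 1 or 3, Δβ3 docetaxel culture 2, pMx docetaxel culture 3 or any pMx DMSO culture, up to an adjusted p of 0.131. With 16 libraries Acat2, Lss, Ebp and Stard4 were higher and Insig1 lower, at -0.29 ± 0.08, where 18 libraries gave 0.00 ± 0.20 for Insig1. Lss was near the limit of counting, at 0.187 and 0 CPM in Δβ3 docetaxel cultures 1 and 3. It had 0.757 to 0.855 CPM in hβ3 docetaxel cultures and was not called with 18 libraries (adjusted p = 0.113). The call of Stard4 was lost with 13 libraries (adjusted p = 0.0675).

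Between Δβ3 and pMx cells few members differed. In DMSO 0 of 27 were called with 18 libraries (2 at an unadjusted p under 0.05, 1 by DESeq2), against 0.0412% of all genes, and Fdft1 with 16, at 0.40 ± 0.08 (adjusted p = 0.028), against 0.332%, a call lost with 13 libraries (0.33, adjusted p = 0.640). Under docetaxel 0 were called with 18 libraries (1 at an unadjusted p under 0.05, 0 by DESeq2), against 0.0247%, and Msmo1 with 16, at 0.38 ± 0.07 (adjusted p = 0.0121), against 0.453%.

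**Figure D3:**
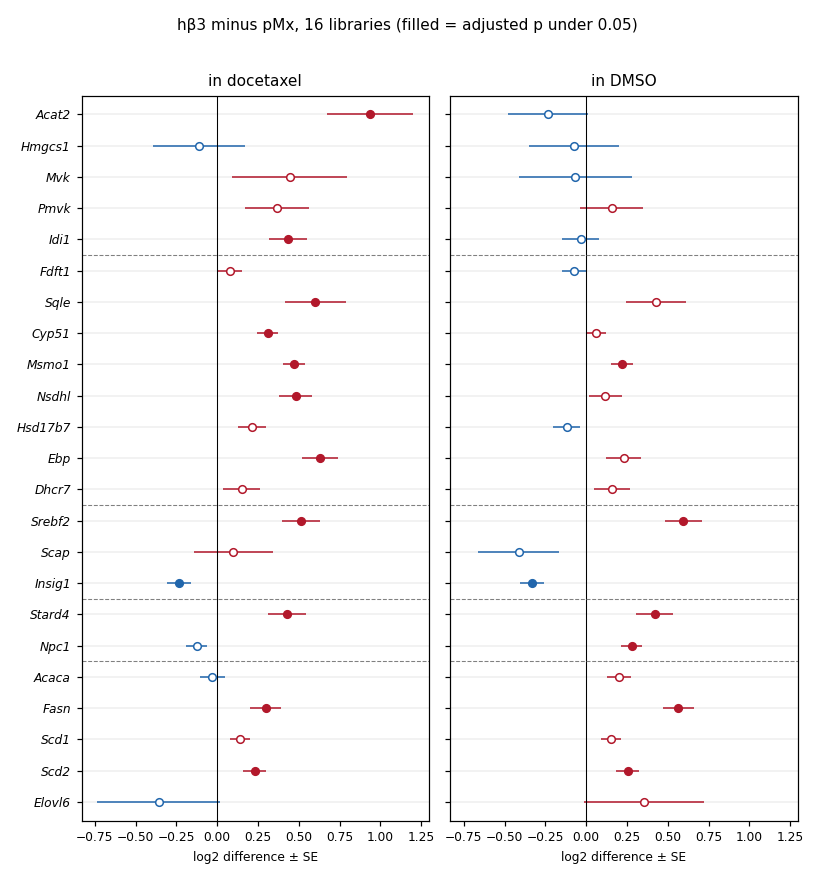
Log2 difference of hβ3 minus pMx (points, with bars of 1 SE) in docetaxel and in DMSO for tested members, from the test on 16 libraries, with filled points at an adjusted p under 0.05. Acly, Lss, Tm7sf2 and Sc5d are left out as before. In docetaxel 11 members are filled to the right of 0 and Insig1 to the left, and in DMSO 6 and Insig1.

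Other genes of sterol and lipid handling were read from 4 lists. Of the other sterol and isoprenoid synthesis genes, 11 were tested with 18 libraries, and 0 rose and 5 fell with docetaxel as the mean of the lines, where 7.9% of all genes rose and 7.67% fell. With 16 libraries 12 were tested, of which 0 rose and 8 fell, where 15.8% of all genes rose and 14.3% fell. The sterol reductase and lamin receptor Lbr fell by 0.40 ± 0.09 (adjusted p = 0.00676), the ferredoxin reductase Fdxr by 0.43 ± 0.10 (adjusted p = 0.00698), and Tmem97, a membrane protein that binds Npc1, by 0.53 ± 0.14 (adjusted p = 0.0158), and no single left-out library ended these calls. Between hβ3 and pMx cells under docetaxel, 0 of these were called with 18 libraries, and 5 were higher and 0 lower in hβ3 with 16, where 15.2% of all genes were higher and 12.2% lower, among them Tmem97 at 0.53 ± 0.10 and Nus1, a subunit of the dolichol-forming enzyme, at 0.35 ± 0.07.

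Among 12 tested genes of SREBP processing and sterol sensing, Rnf145, a sterol-responsive ubiquitin ligase, rose with 16 libraries by 0.25 ± 0.04 (adjusted p = 7.56e-05), against 0.08 ± 0.11 with 18 (adjusted p = 0.691).

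The LXR, esterification, uptake and efflux list had 9 genes tested with 18 libraries, of which 2 rose and 0 fell with docetaxel, where 7.9% and 7.67% of all genes did. Abca1 had 59.8, 54.4 and 61.8 CPM in hβ3 docetaxel cultures, against 17.8, 15.00 and 15.8 CPM in hβ3 DMSO cultures. In Δβ3 cells, Abca1 had 184, 199 and 158 CPM with docetaxel and 65.3, 53.9 and 55.6 CPM with DMSO. In pMx cells, Abca1 had 182, 156 and 169 CPM with docetaxel and 58.9, 50.2 and 45.5 CPM with DMSO. Abca1 pumps cholesterol out of the cell. Each docetaxel culture was above each DMSO culture of the same line, also in the cultures rich in heart muscle transcripts, and hβ3 cells were lowest with either treatment. It rose by 1.73 ± 0.08 (adjusted p = 7.2e-10, edgeR), and by 1.75 ± 0.06 with 16 libraries. Mylip, a ubiquitin ligase that removes lipoprotein receptors and is, like Abca1, an LXR target, rose by 0.72 ± 0.08 (adjusted p = 1.6e-05). Both were lower in hβ3 than in pMx cells, Abca1 by -1.53 ± 0.14 with docetaxel and by -1.67 ± 0.14 with DMSO, and Mylip by -1.19 ± 0.14 and -1.24 ± 0.14, and no single left-out library ended these 6 calls. Their docetaxel responses were not called different between hβ3 and pMx cells, at 0.14 ± 0.19 for Abca1 and 0.04 ± 0.20 for Mylip. With 16 libraries, where 10 of the list were tested, 3 rose and 1 fell, against 15.8% and 14.3% of all genes, and the third to rise was Npc2, the soluble lysosomal partner of Npc1, at 0.36 ± 0.05.

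Of 20 tested fatty acid and triglyceride genes, 1 rose and 2 fell with 18 libraries, where 15.6% of all genes were called, and 1 rose and 3 fell with 16, where 30.1% were. The desaturases Fads2 and Fads3 fell, by 0.52 ± 0.11 (adjusted p = 0.00323) and 0.64 ± 0.14 (adjusted p = 0.00534), and the acetyl-CoA synthetase Acss2 rose by 0.97 ± 0.22 (adjusted p = 0.00703). Acss2 had 26.1 CPM in Δβ3 docetaxel culture 2, rich in heart muscle transcripts, against 6.98 and 6.90 CPM in cultures 1 and 3. The Δβ3 change of Acss2 was 1.17 ± 0.39 with 18 libraries and 0.33 ± 0.23 with 16, not called with either. In hβ3 cells it was 1.05 ± 0.39 and 1.07 ± 0.20, called with 16 only. Fads3 had 221, 255 and 244 CPM in hβ3 docetaxel cultures, against 403, 429 and 374 CPM in hβ3 DMSO cultures. In Δβ3 cells, Fads3 had 66.1, 164 and 63.01 CPM with docetaxel and 118, 115 and 113 CPM with DMSO. In pMx cells, Fads3 had 66.6, 59.3 and 58.5 CPM with docetaxel and 117, 121 and 117 CPM with DMSO. Fads3 was higher in every hβ3 culture than in any culture of the other lines, and lower with docetaxel in each line except for Δβ3 docetaxel culture 2. It was higher in hβ3 than in pMx by 1.97 ± 0.26 with docetaxel (adjusted p = 8.1e-05) and by 1.77 ± 0.25 with DMSO (adjusted p = 0.000178). Fads2 was higher in hβ3 by 0.72 ± 0.19 with docetaxel and by 0.67 ± 0.19 with DMSO, calls that were lost without 6 and 8 single libraries. The lipid droplet coat gene Plin2 was higher in hβ3 in DMSO by 0.75 ± 0.17 (adjusted p = 0.00787).

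**Figure D4:**
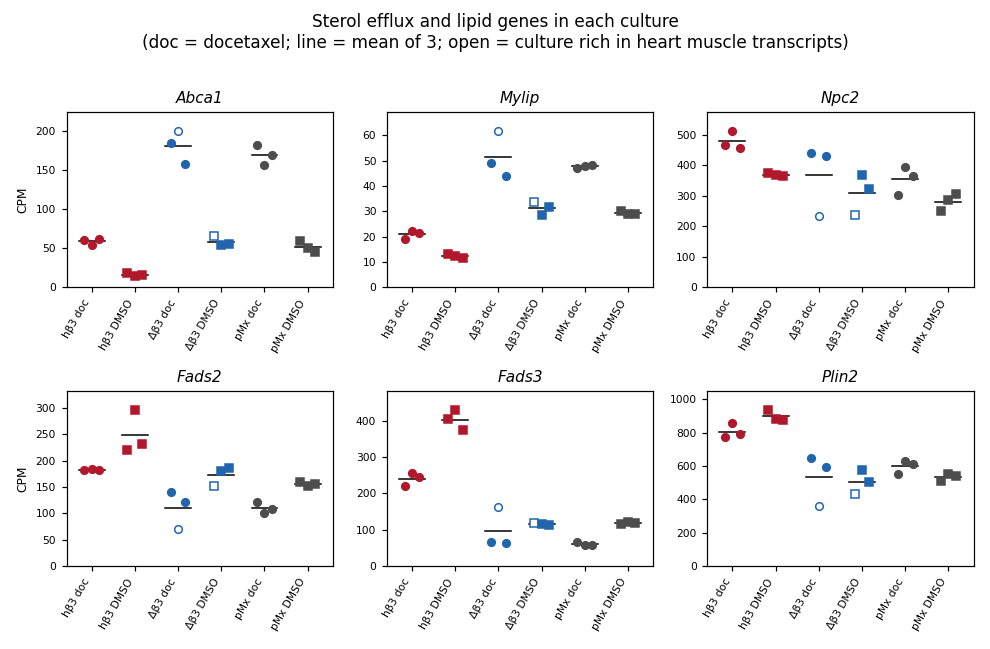
Level (CPM) of 6 other sterol and lipid genes in each culture, drawn as in the plot of member levels. Abca1 and Mylip are higher with docetaxel in each line and lowest in hβ3 cells, and Fads3 is highest in hβ3 cells.

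Proliferation markers moved with docetaxel as well: of 6, 3 were called lower with 18 libraries, against 7.67% of all genes, and 5 with 16, against 14.3%, and their summed level ran from 1281 to 3435 CPM over the libraries. Their part in the changes of the sterol genes was not tested, nor was that of the other tissue transcripts in the Δβ3 results with 18 libraries or in the pMx results with 16.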

How the data were processed

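RNA was extracted from 18 cultures. Per the labels' protocols, ribosomal RNA was removed by hybridisation from 1 µg of total RNA, and libraries made with random hexamers and 13 PCR cycles were sequenced from 1 end over 50 bases. Raw counts by the authors are deposited per transcript model and were made with FastQC, HISAT2 and featureCounts on mm10 per the submitters' processing notes, whose versions, annotation and strand setting the sources used here do not give. The table also lists each model's length in bases, as deposited by the authors, which served for levels per kilobase and in no test. Counts of its 63759 models were summed over 32699 symbols, 13170 of them with several models. Coordinates of genes come from GENCODE M21 (mm10).

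The tests were run in edgeR 4.0.16 (R 4.3.3). Genes were kept with filterByExpr, scaled with TMM factors and fitted with 1 coefficient per group over all libraries (robust quasi-likelihood F-test, two-sided, Benjamini-Hochberg adjustment over all 12145 tested symbols, or 12356 with 16 libraries). The SE was taken from the fold change and its F value, and 95% intervals are 1.96 SE to each side. The 13 comparisons share libraries. Since each group is 3 cultures of 1 line (2 in each Δβ3 group with 16 libraries), p-values measure the spread between cultures. Code was tested on simulated data. DESeq2 1.42.0, RLE factors, no filter, single libraries left out and other settings were tried. Values per culture are given for called members, up to 12 for docetaxel and 12 for line comparisons by p with 16 libraries, and for 7 members named whatever their values. Of each other list, up to 3 called genes with the smallest p are named, and some results are not reported here. The members, lists and the set of 16 libraries were chosen with earlier results of these data known.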

Additional observations from a re-analysis of the deposited data

Results flagged for a closer look

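Npc1 met the criterion of a tested difference between groups under the same contrast. With 16 libraries its docetaxel response in hβ3 cells minus that in pMx cells was -0.41 on the log2 scale (adjusted p = 0.0177 in edgeR). With 18 libraries the value was -0.41 ± 0.24 (adjusted p = 1.00), and on the hβ3 and pMx libraries alone it was -0.42 (adjusted p = 0.0329). With 13 libraries it was -0.40 (adjusted p = 0.143). The cause was not tested.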

How the results depend on the processing

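The number of called members changed with the libraries left out. So did the share of all genes called: for the hβ3 response it was 1.16% with 18 libraries and 12.5% with 16. In this section counts are given without that share, and they describe the settings rather than the members. For the replicate block, single libraries left out, DESeq2, RLE factors, no filter and the top model, the share is not given here. Without the 2 with most heart muscle transcripts, in the order mean response, hβ3, Δβ3 and pMx responses, the counts were 15, 3, 5 and 9, against 5, 0, 0 and 0 with 18 libraries. For the response of hβ3 against pMx it gave 1 (0 with 18). For hβ3 against pMx, hβ3 against Δβ3 and Δβ3 against pMx it gave 7, 7 and 1 in DMSO and 12, 5 and 1 in docetaxel, against 0, 2 and 0, and 0, 1 and 0. Leaving out 3 pMx libraries as well (13 libraries, chosen after seeing the data) gave 13, 5, 6 and 2 for the 4 responses, 5, 7 and 0 in DMSO and 12, 5 and 1 in docetaxel. Fitting only the groups of a comparison gave 1, 9, 1, 7, 0, 12 and 0 for the hβ3 and pMx responses, their difference, hβ3 against pMx and against Δβ3 in DMSO, and the same pairs in docetaxel; the mean response has no such fit. DESeq2 gave 3 and 2 for the Δβ3 and pMx responses, 2, 2 and 1 in DMSO in the order of pairs above, and 2, 3 and 0 in docetaxel. Without the filter, 3 members were called in the mean response, 1 for hβ3 against Δβ3 in DMSO and 0 in docetaxel. Using the top transcript model only gave 3 in the mean response and 0 for hβ3 against Δβ3 in docetaxel. RLE factors and leaving out Rn45s each gave 1 for hβ3 against pMx in DMSO.

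Same-numbered cultures were not shown to be paired: over 45 pairs the correlation of deviations ran from -0.53 to 0.46, with a median of 0.049. With the replicate block on 18 libraries, 4 members were called in the mean response, and 1, 1 and 2 for hβ3 against pMx in DMSO and for hβ3 against Δβ3 in DMSO and in docetaxel. The block on 16 libraries, chosen after seeing the data, gave 15, 7, 3 and 10 for the mean, hβ3, Δβ3 and pMx responses, 2 for the response of hβ3 against pMx, 8, 6 and 2 in DMSO and 13, 4 and 2 in docetaxel.

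With 1 library left out at a time, called members ran from 1 to 9 in the mean response, 0 to 2 and 0 to 3 in the Δβ3 and pMx responses, 0 to 4 and 0 to 6 for hβ3 against pMx and against Δβ3 in DMSO, and 0 to 5 and 0 to 4 in docetaxel.

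Of 2800 values of single genes under other settings, 23 turned sign, all of results not called with 18 libraries. Insig1 for hβ3 against Δβ3 in docetaxel, at 0.00 with 18 libraries, was -0.29 with 16 (with and without the block) and with 13, -0.026 with RLE factors, -0.027 with DESeq2, -0.013 without Rn45s, -0.0042 with the top model, -0.036 in its own groups and -0.29 to 0.22 with 1 library left out. Srebf2 for hβ3 against Δβ3 in DMSO was -0.17 with the top model and -0.043 to 0.44 with 1 library left out. Scd1 in Δβ3 was -0.16 to 0.44 and Msmo1 for Δβ3 against pMx in docetaxel -0.14 to 0.39 with 1 library left out. The causes were not tested.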
